A study of Saccharomyces cerevisiae with 24 samples.

Results

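The 34 budding yeast genes described here take up sulfate, reduce it, and build homocysteine, cysteine, methionine and S-adenosylmethionine (SAM) from it, or regulate those steps. They were chosen by systematic name for their role in the pathway, and all 34 were found among the 7218 features in the deposited table. Their levels were followed in W303-1A MATa cells of 2 strains in which the condensin subunit Ycg1 was modified. The control strain carried YCG1-3PK::K.lactis TRP1, a Pk epitope fused to Ycg1. In Ycg1Degron1, whose allele pMET3-YCG1-3PK-3miniAID::KANMX6 is marked with K.lactis URA3, the promoter of YCG1 was replaced by that of MET3, and the protein carried repeats of a mini auxin-inducible degron. That strain also held ADE2::pADH1-OsTIR1-9Myc, which expresses from the ADH1 promoter the plant F-box protein through which auxin acts on the degron. The control genotype lists neither the MET3 promoter nor OsTIR1.

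Both strains were grown without methionine, held in G1 with the mating pheromone α-factor for 1.5 h, and then moved to rich medium, which contains methionine, with auxin at 88 μg/ml. G1 samples were taken after 2 h in that medium. The same cultures were then released into nocodazole, which blocks cells in mitosis, and M samples were taken after a further 2 h. Every sample therefore came from cells with methionine, and M cells had had it for longer. Stage of the cell cycle and time in rich medium cannot be told apart in a comparison of M with G1. RNA of each sample was made into a polyA-selected library and a total RNA library, with 3 biological replicates, which gave 24 libraries. The 2 library types share their RNA and are not independent repeats.

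Each column name gives the arrest, library type and replicate, together with a code that is either 14 or 18. The 2 samples that share an arrest, library type and replicate differ only in strain. For that reason the code is taken to separate the 2 strains, but no label used here says which code is which strain. Differences are therefore given as code 18 against code 14, and no strain is assigned to either code. YCG1 itself, given here for completeness and not used to assign a strain, stood between 91.3 and 108 CPM (counts scaled to a common library size) in the 3 code 18 polyA libraries of G1 and between 15.2 and 20.7 CPM in those of code 14. In M the corresponding ranges of YCG1 were 75.7 to 85.4 CPM and 14.4 to 17.7 CPM. In total libraries the codes overlapped in G1, with YCG1 at 56.9 to 84.9 CPM in code 18 and 34.8 to 69.9 CPM in code 14, and were apart in M, at 61.0 to 80.5 CPM and 23.5 to 24.5 CPM. Which of these levels belongs to the construct driven by the MET3 promoter was not settled here.

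PolyA libraries held 10282598 to 22171827 counts and total libraries 13932403 to 21650529. Ribosomal RNA took 95.5% to 96.0% of the total libraries, so that only 561296 to 926299 counts entered the fit there, against 9642488 to 21662403 for polyA. All 34 members passed the filter on low counts in polyA, among 5832 genes, and 26 did so in total, among 4960. MET16, MET2, MET8, MET28, MET32, MUP3, STR3 and MHT1 were not tested in total. The 5 pheromone-induced genes checked were all lower in M, with a median log2 change of -5.62 in polyA, and the 5 mitotic genes checked were all higher, with a median of 3.02, as the arrest labels state. A gene was called when the edgeR quasi-likelihood test gave a Benjamini-Hochberg adjusted p under 0.05 over all genes of its library type and the fitted change was at least 1.5-fold. Errors of log2 changes are standard errors. In bulk RNA, fewer cells expressing a gene and less RNA per cell cannot be told apart.

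In yeast, sulfate enters through the permeases Sul1 and Sul2, is activated by Met3 and Met14, and is reduced by Met16 and by the sulfite reductase of Met5 and Met10. Met17 joins the sulfide to O-acetylhomoserine to give homocysteine, Met6 methylates that to methionine, and Sam1 and Sam2 turn methionine into SAM. The activator Met4 reaches these genes through the DNA-binding proteins Cbf1, Met31 and Met32, with Met28 as a cofactor. When methionine and SAM are plentiful, the ubiquitin ligase subunit Met30 holds Met4 in check, which is why methionine represses the MET3 promoter. Gcn4, the activator of amino acid synthesis genes, also acts on part of the pathway.

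Short sequences that these regulators bind stood upstream of most members. Searched on both strands in the 500 bases before the start codon in the RefSeq copy of the R64 genome, CACGTG, the core that Cbf1 binds, was found for 22 of 34 members (64.7%) and for 6.23% of 6000 protein-coding genes. CTGTGGC, bound by Met31 and Met32, was found for 13 members (38.2%) against 3.77% of all genes, and TGACTCA, bound by Gcn4, for 10 members (29.4%) against 4%. Both CACGTG and CTGTGGC stood upstream of 8 members, MET3, SAM2, MET28, MET32, MET30, MUP3, SUL2 and HOM3, and of 0.383% of all genes. Of the members, 5 held none of the 3 sequences in that window, SAM1, MET31, STR2, SAM3 and SAM4. A match is a run of letters and does not show that a protein was bound. Only exact matches were counted, so a member without a match may still hold a variant of the site. The 120-base stretches below are shown for MET3, whose promoter drives the degron construct, for members with large differences between the codes (MET17, SUL1, MUP1), for the divergent pair MMP1 and MHT1, and for MET16 and HOM2, whose change between arrests differed between the codes. Each reads 5′ to 3′ on the strand of the gene, and capitals mark the matches in either orientation.
MET3, YJR010W, chrX:455872-455991, plus strand: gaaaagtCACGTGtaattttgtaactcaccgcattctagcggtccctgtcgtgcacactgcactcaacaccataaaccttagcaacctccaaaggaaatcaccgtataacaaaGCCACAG
MET17, YLR303W, chrXII:732184-732303, plus strand: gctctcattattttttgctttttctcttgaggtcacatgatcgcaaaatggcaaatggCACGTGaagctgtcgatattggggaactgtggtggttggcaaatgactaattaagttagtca
SUL1, YBR294W, chrII:788801-788920, plus strand: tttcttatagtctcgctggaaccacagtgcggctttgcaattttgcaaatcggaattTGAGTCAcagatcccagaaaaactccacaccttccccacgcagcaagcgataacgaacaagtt
MUP1, YGR055W, chrVII:599134-599253, plus strand: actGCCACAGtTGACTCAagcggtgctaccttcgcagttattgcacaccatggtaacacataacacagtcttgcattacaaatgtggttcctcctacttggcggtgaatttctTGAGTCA
MMP1, YLL061W, chrXII:17726-17845, plus strand: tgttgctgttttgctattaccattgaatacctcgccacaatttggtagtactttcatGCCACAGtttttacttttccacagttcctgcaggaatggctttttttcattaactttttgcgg
MET16, YPR167C, chrXVI:877732-877851, minus strand: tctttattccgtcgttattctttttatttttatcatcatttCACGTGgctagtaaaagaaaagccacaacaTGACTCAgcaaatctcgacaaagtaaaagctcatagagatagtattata
HOM2, YDR158W, chrIV:770116-770235, plus strand: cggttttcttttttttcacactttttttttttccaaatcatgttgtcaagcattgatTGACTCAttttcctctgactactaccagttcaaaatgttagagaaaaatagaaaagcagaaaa
In the MET3 stretch CACGTG and GCCACAG, the reverse complement of CTGTGGC, stand near either end. A further CACGTG lies just before it, 377 bases from the start codon. The GCCACAG upstream of MMP1 is the same site as the CTGTGGC counted for MHT1, since these genes run away from each other with 342 bases between their coding regions.

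Between members, polyA levels per kilobase of coding sequence spanned a wide range. In G1 libraries of code 14, HOM2 (aspartate semialdehyde dehydrogenase, on the way from aspartate to homoserine) had the highest mean, 1145 CPM per kilobase. It was followed on the same scale by SAH1 (S-adenosylhomocysteine hydrolase) at 587, SAM4 (a homocysteine methyltransferase) at 415 and CYS4 (cystathionine β-synthase) at 383. STR3, MET2, MHT1 and MMP1 were lowest, at 2.46 to 2.91 CPM per kilobase. MET3 was among the weakly expressed members with 15.5 CPM per kilobase. For 33 of the members no 76-base window, the length of a read, occurred elsewhere in the genome. SAM4 was the exception, with 14.95% of its windows found elsewhere, so its counts are less certain.

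MET3 encodes ATP sulfurylase, the first enzyme of sulfate activation, and lies on chromosome X from 456239 to 457774 on the plus strand. In polyA libraries of G1 its level was 27.3, 23.7 and 20.3 CPM in code 14 and 18.4, 16.6 and 19.4 CPM in code 18. In M it was 18.8, 18.2 and 17.3 CPM in code 14 and 18.9, 19.5 and 19.2 CPM in code 18. Code 14 was above code 18 in G1 without overlap, and below it in M, likewise without overlap but by little. The fitted difference in G1 was -0.39 ± 0.11 on the log2 scale (code 18 minus code 14, adjusted p = 0.0335, edgeR quasi-likelihood test), under the 1.5-fold limit, and in M it was 0.08 ± 0.11 (adjusted p = 0.695). MET3 was also not called between M and G1 (-0.16 ± 0.08, adjusted p = 0.122). In total libraries MET3 had 16 to 29 counts in G1 of code 14 and 7 to 12 counts in G1 of code 18. There the difference in G1 was called, at -1.69 ± 0.36 (adjusted p = 0.00516, edgeR quasi-likelihood test), which is 3.23-fold lower in code 18. Whether polyA and total differed in this respect was not tested.

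The comparison between the codes in G1 asks which members differ between the strains 2 h after the depletion treatment. Members were mostly lower in code 18. In polyA, 16 of 34 members (47.1%) were called lower and 0 higher, where 4.96% of all genes tested were called lower and 2.3% higher. The median change of the members was -0.76 and that of all genes 0.01, and 32 of 34 members had a change below 0, the others being MET4 (0.01) and SAH1 (0.27). In total, 11 of 26 members (42.3%) were called lower, against 3.21% of all genes, and 1, SAH1, was called higher, against 1.41%. The members' median there was -0.85. At an unadjusted p under 0.05 by edgeR, 26 members were lower and 1 higher in polyA, and DESeq2 called 17 lower and 0 higher. No share of all genes is set beside these 2 counts, so they give directions and not an excess. Scaled by the ERCC spike-ins, 6 members of polyA stayed called, SUL1, MET6, STR3, MUP1, SAM1 and MET17, and the members' median was -0.74.

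Of the genes that make homocysteine and methionine, 3 of 4 were called lower in G1 of code 18 in polyA. Homocysteine synthase MET17 was at 111, 99.0 and 61.6 CPM in the polyA libraries of code 14 and at 12.99, 16.7 and 17.1 CPM in those of code 18. The groups were far apart, with MET17 5.85-fold lower in code 18 (log2 change -2.55 ± 0.29, adjusted p = 0.000151, edgeR quasi-likelihood test). In total libraries the log2 change of MET17 was -2.57 ± 0.35. Methionine synthase MET6 was at 225, 166 and 110 CPM in code 14 and 31.6, 27.6 and 33.7 CPM in code 18, again without overlap. Its log2 change was -2.43 ± 0.31 in polyA and -1.75 ± 0.26 in total. The third gene of this role, MET13 (methylenetetrahydrofolate reductase, which supplies the methyl group), was called lower in both library types (-1.12 ± 0.18 and -1.08 ± 0.19). MET2 (homoserine acetyltransferase), at 1.11 to 5.49 CPM, was not called (-1.17 ± 0.44, adjusted p = 0.092, edgeR quasi-likelihood test).

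Both sulfate permeases were called lower in G1 of code 18 in both library types. The polyA level of SUL1 was 35.5, 24.5 and 13.8 CPM in code 14 and 5.02, 4.92 and 4.25 CPM in code 18. Code 14 was spread over more than its lowest value, and still lay wholly above code 18 (log2 change -2.38 ± 0.34, 5.19-fold lower). In total the change of SUL1 was -2.75 ± 0.47. SUL2 changed less, by -1.05 ± 0.20 in polyA and -1.59 ± 0.44 in total. The call for SUL2 in total was lost with DESeq2 (-1.62), and without replicate 1 or 3 of code 18 or without replicate 1 or 2 of code 14, where its value lay between -1.69 and -1.36.

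Among the sulfate reduction genes, MET10, a sulfite reductase subunit, was at 113, 98.4 and 73.3 CPM in code 14 and at 41.4, 44.7 and 40.3 CPM in code 18 of G1. It was called in polyA (-1.17 ± 0.12) and in total (-1.61 ± 0.23). MET16 (PAPS reductase) was called in polyA (-1.14 ± 0.15), and MET5, the other sulfite reductase subunit, in total alone (-1.22 ± 0.23, against -0.34 ± 0.11 in polyA). MET14 (adenylylsulfate kinase) and the siroheme synthesis genes MET1 and MET8 were not called in polyA, with changes of -0.66, -0.43 and -0.40.

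The high-affinity methionine permease MUP1 was at 57.8, 46.6 and 31.6 CPM in G1 of code 14 and at 11.4, 11.9 and 9.20 CPM in code 18. All code 14 libraries were above all code 18 libraries, and the log2 change of MUP1 was -2.06 ± 0.33 in polyA and -2.35 ± 0.48 in total. The low-affinity permease MUP3 was also called in polyA (-0.95 ± 0.25), as was the SAM permease SAM3 (-0.89 ± 0.25). SAM1, a SAM synthetase, was called in polyA (-1.79 ± 0.33) and not in total (-0.47 ± 0.27, adjusted p = 0.376, edgeR quasi-likelihood test). The other SAM synthetase, SAM2, was not called in either (-0.51 ± 0.37 and -0.70 ± 0.45). SAH1, which clears the product of SAM-dependent methylation, was higher in code 18, at 0.27 ± 0.08 in polyA, under the fold limit, and at 0.62 ± 0.08 in total, where it was called. Without replicate 1 of code 18 the total value of SAH1 was 0.55, scaled by library totals alone it was 0.58, and with both library types in 1 fit 0.45, and it was then no longer called.

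STR3, a cystathionine β-lyase that makes homocysteine from cystathionine, had the largest polyA change of all members in G1, -2.73 ± 0.38, at levels of only 2.84 to 4.41 CPM in code 14 and 0.309 to 0.599 CPM in code 18. STR2, cystathionine γ-synthase, was called in both library types (-0.77 ± 0.10 and -1.05 ± 0.16), and so was HOM2 (-1.02 ± 0.12 and -0.997 ± 0.106). The abundant CYS3 and CYS4, which convert homocysteine to cysteine, were not called, at -0.27 ± 0.14 and -0.19 ± 0.10 in polyA. Of the regulators, MET32 (-1.39 ± 0.31) and MET28 (-0.75 ± 0.19) were called in polyA. MET4 (0.01 ± 0.09) and MET31 (-0.02 ± 0.15) were close to 0, and MET30 was under the fold limit (-0.47 ± 0.10, adjusted p = 0.00973, edgeR quasi-likelihood test). In polyA the calls of MUP3, MET28, SAM3 and MET32 in G1 were each lost in at least 1 fit that left out a single library. Leaving out replicate 1 of code 18 ended those of MUP3 (-0.79), SAM3 (-0.84) and MET32 (-1.20), and leaving out replicate 3 of code 18 ended those of MUP3 (-0.96), SAM3 (-0.85) and MET28 (-0.71). Without replicate 1 of code 14 the calls of MUP3 (-0.78), SAM3 (-0.82) and MET28 (-0.74) were lost, and without replicate 2 of code 14 those of MUP3 (-0.94), SAM3 (-0.93) and MET28 (-0.61). Without replicate 3 of code 14 that of SAM3 (-0.94) was lost. That of MET28 was also lost with G1 fitted alone (-0.77) and with both library types in 1 fit (-0.72).

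**Figure D1:**
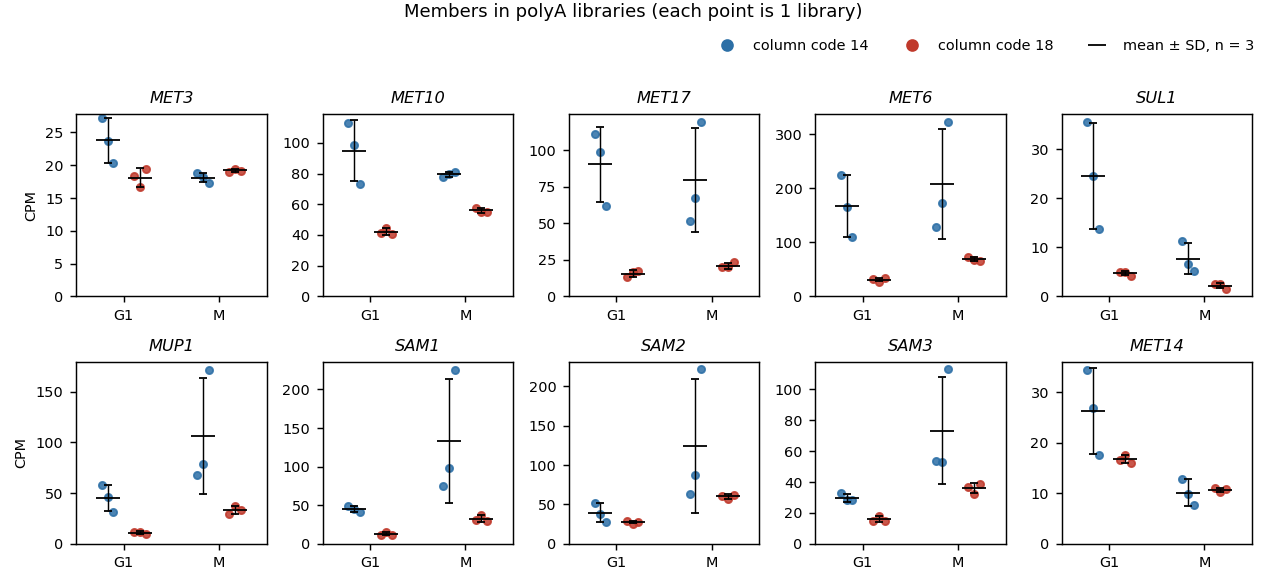
CPM of 10 members in each polyA library (y axis, linear from 0) by arrest (x axis) and column code, with the mean and SD of 3 libraries. In G1 the code 18 points of MET10, MET17, MET6, SUL1, MUP1, SAM1 and SAM3 lie below every code 14 point, and in M 1 code 14 library stands high for MUP1, SAM1, SAM2 and SAM3, at 113 to 226 CPM.

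Split by the upstream sequences, 8 of the 10 members with TGACTCA were called lower in code 18 in G1 of polyA (median -1.07), and 8 of the 24 without it (median -0.59). For CACGTG the numbers were 8 of 22 with it (median -0.51) and 8 of 12 without it (median -0.96). For CTGTGGC they were 7 of 13 with it (median -0.91) and 9 of 21 without it (median -0.66). In M of polyA the numbers were 5 of 10 with TGACTCA (median -0.53) and 8 of 24 without it (median -0.41). For CTGTGGC in M they were 8 of 13 (median -1.05) and 5 of 21 (median -0.26). For CACGTG in M they were 6 of 22 (median -0.29) and 7 of 12 (median -1.24). In total the medians with and without TGACTCA were -1.15 and -0.62 in G1, and -0.48 and -0.56 in M. These are descriptions of few genes, some of which hold more than 1 of the sequences, and no test was made.

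Other genes moved with the code in G1. Of the 5 pheromone-induced genes, 3 (FUS1, FIG1 and KAR4) were called lower in code 18 in polyA, with a median change of -0.79 over the 5. Their summed level was 8441 to 9561 CPM in code 14 and 4859 to 8051 CPM in code 18, and none of the 5 was at 0. Of the 5 mitotic genes 1 was called lower in code 18 in G1 of polyA and 0 higher. Of the 2 genes checked that are specific to the α mating type, both at low levels, 1 was called lower. Of the 4 genes checked that mark MATa cells 0 were called. The part of the arrest state in the differences of the members was not tested. Of 30 further genes of sulfur and one-carbon metabolism that are not members, 5 (16.7%) were called lower in polyA, against 4.96% of all genes. Their median was -0.17, and 1 (3.33%) was called higher, against 2.3%. Those lower were SHM2 and MTD1 (folate one-carbon enzymes), ARO8 (an aromatic aminotransferase that also serves methionine salvage), MET22 (a phosphatase of sulfate assimilation) and JLP1 (which releases sulfur from sulfonates), at -1.28 to -0.66, and ARO9 was higher (0.93). In total 3 of 26 (11.5%) were called lower and 1 (3.85%) higher, against 3.21% and 1.41% of all genes.

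In M the same comparison gave fewer calls. Of the members, 13 of 34 (38.2%) were called lower in code 18 in polyA and 0 higher, against 2.33% and 2.49% of all genes, with a median change of -0.41 over the members and -0.02 over all genes. In total 4 of 26 members (15.4%) were called lower and 0 higher, against 1.39% and 1.33%, with a median of -0.56. At an unadjusted p under 0.05 by edgeR, 19 members were lower and 0 higher in polyA and 13 lower and 1 higher in total. DESeq2 called 13 members lower in polyA and 5 lower in total, with 0 higher in either. These counts, too, stand without a share of all genes and give directions only. Scaled by the ERCC spike-ins, 2 members of polyA stayed called, SAM1 (-1.65) and MET17 (-1.50), and the members' median was 0.00, where that of all genes was 0.42. SAM1, MET17, MUP1 and MET6 were called in both library types. PolyA levels of MET17 in M were 51.9, 67.5 and 119 CPM in code 14 and 19.9, 19.8 and 23.5 CPM in code 18 (log2 change -1.91 ± 0.29). MET6 was at 128, 173 and 322 CPM in code 14 and at 73.3, 67.2 and 66.0 CPM in code 18 (-1.59 ± 0.30). For both genes the codes did not overlap, and code 14 was spread more widely than code 18. The call for MET17 in total (-1.55 ± 0.37) was lost without replicate 1 (-1.41) or 2 (-1.34) of code 18 and without replicate 2 (-1.59) or 3 (-1.38) of code 14.

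In M, SAM1 was at 75.3, 98.6 and 226 CPM in code 14 and at 30.5, 37.6 and 29.7 CPM in code 18, a change of -2.04 ± 0.32 in polyA and -1.81 ± 0.30 in total. MUP1 was at 68.2, 78.8 and 172 CPM in code 14 and at 29.8, 37.1 and 33.3 CPM in code 18 (-1.67 ± 0.31 in polyA and -2.07 ± 0.42 in total). In each case replicate 3 of code 14 stood high, and the other code 14 libraries were still above all of code 18. Without that library the polyA changes were -1.42 for SAM1, -1.14 for MUP1 and -1.13 for MET6, all still called. The polyA calls of MHT1 (S-methylmethionine-homocysteine methyltransferase, -1.79 ± 0.46), SAM3 (-1.02 ± 0.24) and MUP3 (-0.80 ± 0.23) were lost without it, at -0.91, -0.56 and -0.62.

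The other members called in M were SUL1 (-1.82 ± 0.38), SUL2 (-0.89 ± 0.20), STR3 (-1.76 ± 0.38), MET32 (-1.60 ± 0.30), MET28 (-1.15 ± 0.21) and MMP1, the S-methylmethionine permease (-1.45 ± 0.25), all in polyA. Some of these calls, too, were lost when a single library was left out. That of STR3 was lost without replicate 1 of code 18 in M (-1.52) and that of SUL2 without replicate 3 (-0.85). MHT1 was lost without any 1 of the code 18 libraries of M (-1.87 to -1.75), SAM3 without replicate 1 (-1.03) or 2 (-0.95) of code 18 in M, and MUP3 without any 1 of 8 libraries (-0.88 to -0.62). With M fitted alone the calls of MHT1 (-1.78), SAM3 (-1.0015) and MUP3 (-0.78) were lost. That of MUP3 was also lost without a count filter (-0.77) and with ribosomal RNA and ERCC kept (-0.78). It was lost, too, with both library types in 1 fit (-0.61) and with the replicate number as a block. HOM2 (0.14 ± 0.12), STR2 (0.13 ± 0.10), MET13 (0.07 ± 0.17) and MET14 (0.08 ± 0.23) were near 0 in M, where their G1 values had been -1.02, -0.77, -1.12 and -0.66. The 3 pheromone-induced genes FUS1, FIG1 and AGA1 were called lower in code 18 of M in polyA. Their list sum was 234 to 286 CPM in code 14 and 155 to 202 CPM in code 18. Of the 4 genes checked that mark MATa cells, 3 (MFA1, MFA2 and BAR1) were called lower in code 18 of M in polyA, with a median of -1.08 over the 4. Their summed level was 381 to 407 CPM in code 14 and 248 to 283 CPM in code 18. Of the 2 genes checked that are specific to the α mating type, MF(ALPHA)1 was called higher in code 18 and STE3 was not called. The mean of MF(ALPHA)1 was 0.43 CPM in code 14 and 1.70 CPM in code 18. Of the 5 mitotic genes 1 was called higher in code 18 and 0 lower. The part of any of these lists in the members' differences was not tested. Of the 30 further sulfur and one-carbon genes, 1 had an adjusted p under 0.05 by edgeR in polyA of M, MET7 (folylpolyglutamate synthetase), at -0.23, under the fold limit.

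**Figure D2:**
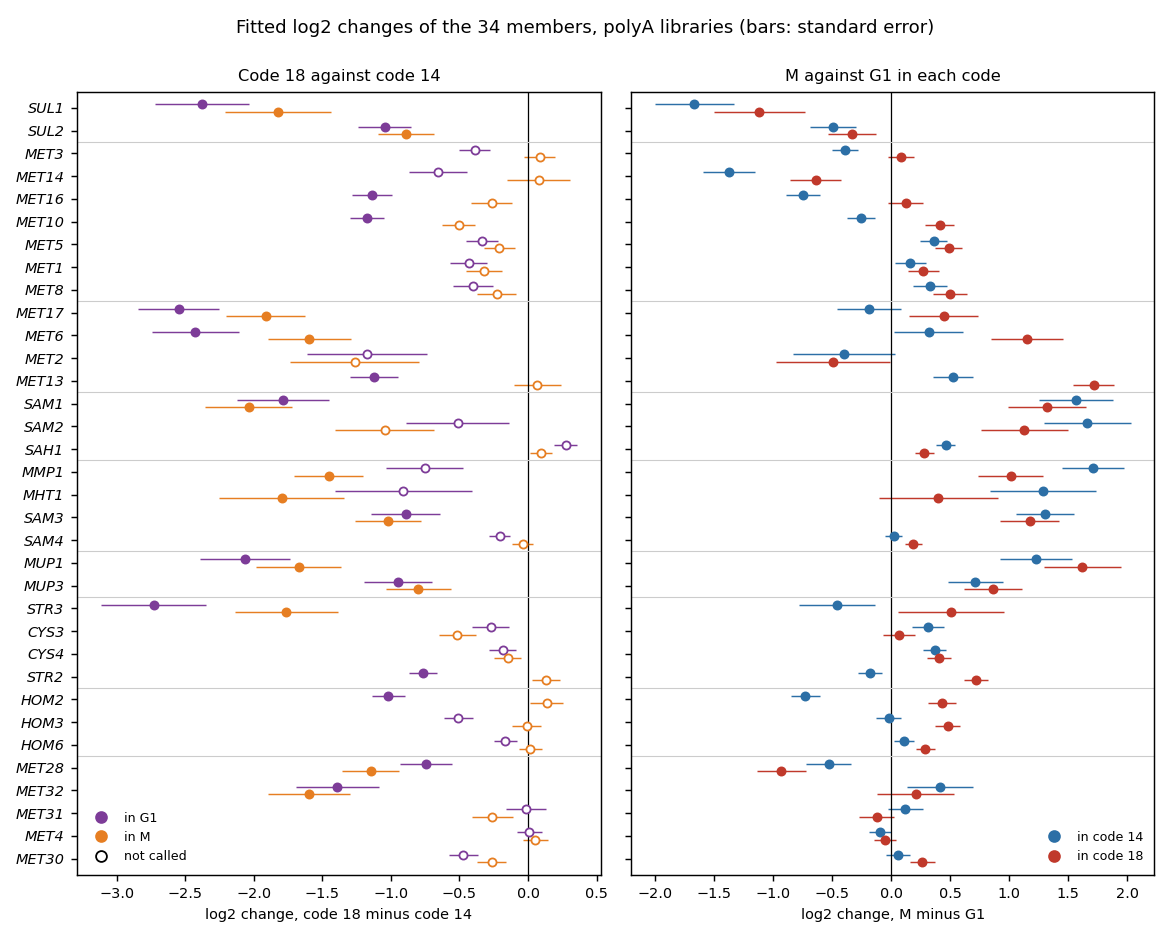
Fitted log2 changes (x axis) of the 34 members, in rows grouped by role, in polyA libraries with standard errors. The left panel gives code 18 minus code 14 in G1 and in M, open symbols marking changes not called, and the right panel M minus G1 in each code. In the left panel most points lie below 0, and the G1 and M points of HOM2, STR2 and MET13 are set apart.

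M against G1 asks how members stand in mitotic arrest, later in rich medium, relative to the pheromone arrest, as the average over both codes. In polyA 8 of 34 members (23.5%) were called higher in M, against 8.38% of all genes, and 3 (8.82%) lower, against 5.85%. Those higher were SAM1, SAM2, SAM3, MUP1, MUP3, MMP1, MET6 and MET13, and those lower were MET14, SUL1 and MET28. In total 3 of 26 were called higher (11.5%, against 6.65% of all genes) and 1 lower (3.85%, against 5.06%). The shares called lower were near those of all genes. The median change over members was 0.21 in polyA and 0.06 in total. It turned to -0.19 when polyA libraries were scaled by the ERCC spike-ins, a scaling under which the median of all genes was -0.41. Of all genes it called 112 higher and 592 lower, where the main scaling called 489 and 341, and of the members 5 higher and 3 lower. That scaling ended the calls of MUP3 (0.48), MET6 (0.40) and MET13 (0.77) in polyA.

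SAM2 was at 52.3, 37.5 and 28.1 CPM in G1 of code 14, 28.9, 25.7 and 27.7 CPM in G1 of code 18, 63.3, 87.4 and 222 CPM in M of code 14 and 60.5, 57.1 and 62.5 CPM in M of code 18, in polyA. Every M library was above every G1 library, and the log2 change of SAM2 was 1.39 ± 0.26 in polyA (adjusted p = 0.000818, edgeR quasi-likelihood test). In total it was 0.88 ± 0.30. The call for SAM2 in total was lost with DESeq2 (0.87) and with the culture (0.83) or the replicate number as a block. It was also lost without any 1 of 7 of the 12 libraries (0.51 to 0.94). Among these was replicate 3 of code 14 in M, without which the change was lowest.

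SAM3, the SAM permease, was at 32.8, 28.1 and 28.4 CPM in G1 of code 14 and at 15.0, 18.2 and 15.1 CPM in G1 of code 18. In M it was at 53.5, 53.1 and 113 CPM in code 14 and at 36.8, 32.3 and 39.1 CPM in code 18. Within each code M lay above G1, and the change of SAM3 was 1.24 ± 0.17 in polyA and 0.91 ± 0.24 in total. MET13 was at 71.4, 48.8 and 43.5 CPM in G1 of code 14 and at 28.2, 23.5 and 23.1 CPM in G1 of code 18, against 73.5, 69.1 and 92.7 CPM and 76.3, 79.2 and 91.0 CPM in M. Its M levels overlapped G1 in code 14 and lay far above it in code 18. The average change of MET13 was 1.12 ± 0.12 in polyA and 0.79 ± 0.13 in total.

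MET14 was the one member called lower in both library types. It was at 34.3, 26.9 and 17.5 CPM in G1 of code 14, 16.5, 17.5 and 15.996 CPM in G1 of code 18, 12.8, 9.91 and 7.63 CPM in M of code 14 and 11.0, 10.1 and 10.8 CPM in M of code 18. All M libraries were below all G1 libraries, with a change of -1.01 ± 0.16 in polyA and -0.96 ± 0.29 in total. In total MET14 had only 4 to 17 counts per library, and its call was lost with DESeq2 (-0.97), and without replicate 1 of code 18 (-0.86) or replicate 2 of code 14 (-0.82) in M. SUL1 (-1.39 ± 0.26) and MET28 (-0.73 ± 0.14) were called lower in polyA alone.

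SAM1 (1.44 ± 0.23), MUP1 (1.42 ± 0.22), MMP1 (1.36 ± 0.19), MUP3 (0.79 ± 0.17) and MET6 (0.73 ± 0.21) were called higher in M in polyA alone. In total SAM1 and MET6 had changes of the other sign, -0.27 ± 0.20 and -0.27 ± 0.19, which were not called, and SAM1 had 20 to 117 counts per library there. Whether the library types differed was not tested. The call for MET6 was lost with the culture as a replicate block (0.71), with both library types in 1 fit (0.32) and without replicate 3 of code 14 in M (0.50). The remaining 23 members were not called in polyA, MET3 among them, and the changes of MET4 (-0.07 ± 0.06) and MET31 (0.00 ± 0.10) were small. Among the 30 further genes, 6 (20%) were called higher, against 8.38% of all genes, and 1 (3.33%) lower, against 5.85%. The largest changes were those of ARO9 (1.22) and IRC7 (1.07), the latter a β-lyase acting on cysteine conjugates.

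**Figure D3:**
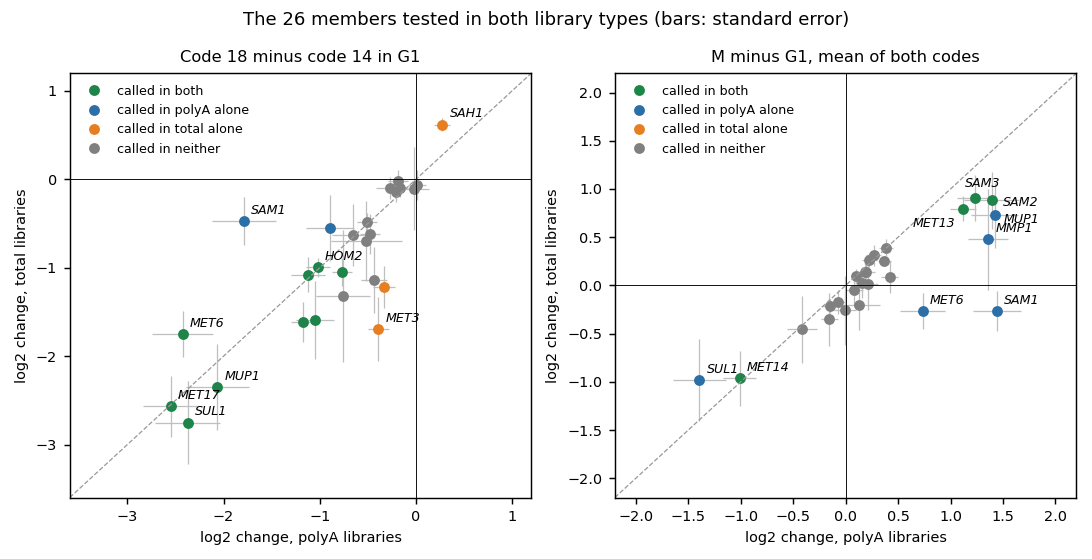
Log2 changes in total libraries (y axis) against those in polyA libraries (x axis) for the 26 members tested in both, with standard errors, coloured by call. The dashed line marks equal values. SAM1 lies apart in both panels (-1.79 in polyA and -0.47 in total for the codes in G1, 1.44 and -0.27 for M against G1), and MET3 lies low in total in the left panel (-0.39 against -1.69).

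The last comparison asks whether the M against G1 change differed between the codes. In this comparison, larger means a more positive log2 change from G1 to M in code 18, and smaller a more negative one, whatever its size. In polyA 4 of 34 members (11.8%) were called larger and 0 smaller, against 1.94% and 0.926% of all genes. Called or not, the difference between the codes was above 0 for 23 members and below 0 for 11. In total 2 of 26 (7.69%) were called larger and 0 smaller, against 1.17% and 0.827%. At an unadjusted p under 0.05 by edgeR, 8 were larger and 0 smaller in polyA, and 5 larger and 3 smaller in total. The share of all genes at that p was not counted, so these are directions only. DESeq2 called 5 members larger in polyA and 2 in total, and 0 smaller in either. Scaled by the ERCC spike-ins, 0 of the 4 in polyA stayed called. The 4 were HOM2, STR2, MET13 and MET16, and HOM2 and STR2 were called in both library types. They are described one by one because they were called, a choice made after their values were seen.

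HOM2 was at 1341, 1336 and 1093 CPM in G1 of code 14 and at 543, 661 and 656 CPM in G1 of code 18. In M it was at 730, 703 and 840 CPM in code 14 and at 789, 745 and 965 CPM in code 18. HOM2 thus went from G1 to M by -0.73 in code 14 and by 0.43 in code 18, with the codes apart in G1 and overlapping in M. The difference between these changes was 1.16 ± 0.17 in polyA (adjusted p = 0.0041, edgeR quasi-likelihood test) and 1.09 ± 0.15 in total (adjusted p = 0.000506).

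STR2 was at 161, 147 and 120 CPM in G1 of code 14 and at 82.6, 79.0 and 89.4 CPM in G1 of code 18, and at 130, 116 and 132 CPM and 140, 127 and 145 CPM in M. It too was apart in G1 and overlapping in M, and went by -0.18 in code 14 and by 0.72 in code 18. The difference was 0.89 ± 0.15 in polyA and 1.08 ± 0.22 in total. For MET13 the changes were 0.52 in code 14 and 1.71 in code 18, a difference of 1.19 ± 0.24 in polyA. In total the difference for MET13, 0.93 ± 0.26, was not called.

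MET16 was at 35.0, 37.9 and 25.6 CPM in G1 of code 14 and at 15.9, 12.6 and 16.2 CPM in G1 of code 18. In M it was at 18.8, 20.8 and 19.2 CPM in code 14 and at 15.2, 16.5 and 17.2 CPM in code 18. Its change was -0.75 in code 14 and 0.12 in code 18, a difference of 0.87 ± 0.21 close to the threshold (adjusted p = 0.0412, edgeR quasi-likelihood test). With the culture as a replicate block the calls of MET16 (0.86) and MET13 (1.18) were lost in polyA. That of MET16 was also lost with the replicate number as a block and with scaling by library totals alone (0.86). It was lost, too, without any 1 of 10 of the 12 libraries (0.75 to 0.93). The call of MET13 was lost without replicate 3 of code 18 in G1 (1.14) or in M (1.11). It was also lost without replicate 2 of code 14 in M (1.11). Each of these 3 libraries left out gave 2 calls among the members. Without replicate 3 of code 14 in G1 there were 8 in polyA and 4 in total, which added HOM3, MET10, MET14 and MET3 in polyA, at 0.60, 0.86, 0.99 and 0.61. Of the 30 further genes, ARO8 (0.67) and MET22 (0.81) were called in polyA (6.67%, against 1.94% of all genes called larger).

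**Figure D4:**
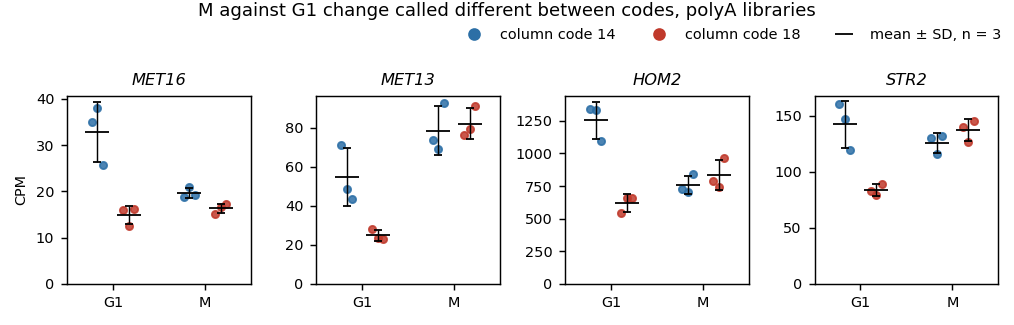
CPM of MET16, MET13, HOM2 and STR2 in each polyA library (y axis, linear from 0) by arrest (x axis) and column code, with the mean and SD of 3 libraries. The codes are apart in G1 and, for MET13, HOM2 and STR2, overlap in M.

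Within code 14, replicate 3 was the lowest of its 3 polyA libraries for 26 of 34 members in G1 and the highest for 25 of 34 members in M. Replicate 1 was the highest for 25 members in G1 and the lowest for 17 in M. In total libraries the counts were 21 and 20 of 33 members without ties for replicate 3 and 20 and 19 for replicate 1. Libraries of code 18 were more even, none being highest or lowest for more than 16 members in polyA. The summed level of the 34 members was 4819 to 5575 CPM in G1 of code 14, 3668 to 4065 CPM in G1 of code 18, 5055 to 6631 CPM in M of code 14 and 4764 to 5267 CPM in M of code 18. In G1 the codes did not overlap in this sum, and in M they did.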

How the data were processed

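Total and polyA RNA were sequenced as 76-base single-end strand-specific reads. Per the labels and the methods, the authors trimmed reads with cutadapt 1.9.1 and estimated gene abundance with RSEM 1.3.0 and STAR 2.5.2a on the R64 assembly. The deposited expected counts, one column per library, were rounded to whole numbers. The authors' 24 deposited TPM columns were not used. Columns were matched to arrest and library type by name, and 6 libraries formed each of 4 groups.

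Left out were 16 ribosomal RNA features, whose share is given above, and 92 ERCC spike-ins. Counts were scaled by TMM, filtered with filterByExpr and fitted with edgeR 4.0.16 (R 4.3.3), with 1 mean per arrest and code and polyA and total apart. CPM are scaled by TMM. The standard error is the log2 change divided by the square root of the test's F. RSEM expected counts rest on a division of reads shared between genes. The script was tested on simulated data with 200 changed genes. No columns held identical counts.

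The members and the lists of other genes were chosen with earlier results of these data known. Values in each library are given for MET3, and for members called in both library types, at most 10 by the size of the M against G1 change and at most 5 per arrest by the size of the difference between codes. Those called in the interaction were added.

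Pairing of replicate numbers was checked. The labels state that G1 and M samples came from the same cultures, so culture (code and number) was used as a block in an alternative fit for M against G1 and for the interaction. Deviations of such pairs correlated by -0.28 to 0.59 in polyA (mean 0.11). Pairs of unlike number in the same code correlated by -0.54 to 0.38 (mean -0.05). Between codes, same-numbered polyA libraries correlated by -0.20 to 0.22 (mean 0.10), and those of unlike number by -0.36 to 0.28 (mean -0.05). The number was taken as a name only, and served as a block in a further alternative fit. Other alternatives were other scalings (DESeq2 size factors, library totals, ERCC), no count filter, DESeq2 1.42.0, ribosomal RNA kept, no fold limit, 1 arrest per fit, both library types together, and each library left out. Leaving out replicate 3 of code 14 in M was also read on its own, a choice made after seeing the data. Counts at this depth limit the precision most in total libraries.

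Upstream sequences were read from the RefSeq R64 genome with Python 3.11.15. The table holds no coordinates, and those given are of that assembly. Of its features, 6048 matched a RefSeq gene by systematic name, among them all 34 members.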

Additional observations from a re-analysis of the deposited data

Results flagged for a closer look

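Among the 14 members given library by library, 54 sets of 6 libraries (1 arrest and 1 library type) were checked for a library far from the others, and 5 had one. Chance gives about 1 in 20 only where all 6 libraries share 1 level. Here each set pools both codes, and most of these members were chosen because they were called. The 5 of 54 can therefore not be set against that rate. In all 5 it was replicate 3 of code 14 in M. SAM2 stood at 222 CPM in polyA, where the other 5 libraries lay between 57.1 and 87.4 CPM, and at 176 CPM in total, against 38.4 to 63.8 CPM. In polyA SAM3 stood at 113 CPM (others 32.3 to 53.5), MUP1 at 172 CPM (others 29.8 to 78.8) and SAM1 at 226 CPM (others 29.7 to 98.6). The 5 are not independent, since they come from 1 RNA sample.

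The M against G1 change differed between the codes by the interaction term of the edgeR fit for 4 members. Code 18 minus code 14, it was 1.16 for HOM2, 0.89 for STR2, 1.19 for MET13 and 0.87 for MET16 in polyA, and 1.09 for HOM2 and 1.08 for STR2 in total.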

How the results depend on the processing

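No direction of a member count or of a named member's called change turned under the alternatives run. Over all genes, M against G1 in polyA turned from more called higher to more called lower when scaled by ERCC, with the numbers given above. The members' median for M against G1 turned with it, from 0.21 to -0.19. Scaled by ERCC, the median of all genes in polyA was -0.41 for M against G1 (main 0.01), -0.04 for the codes in G1 (main 0.01), 0.42 for the codes in M (main -0.02) and 0.48 for the interaction (main -0.02). That scaling left 8 of 11 members called for M against G1, 6 of 16 members called between codes in G1, 2 of 13 in M and 0 of 4 in the interaction. Of all genes it called 95 between codes in G1, 72 in M (46 higher and 26 lower, main 145 and 136) and 37 in the interaction. Scaling by library totals alone gave 63 higher and 28 lower for the interaction in total (main 58 and 41). Total libraries held 191 to 646 ERCC counts, under the minimum of 1000, and that scaling was not run there. Without the fold limit, M against G1 called 20 members in polyA (main 11) and 9 in total (main 4), and over all genes 2976 (main 830) and 1178 (main 581), the codes 925 (main 423) and 427 (main 229) in G1 of polyA and total and 697 (main 281) in M of polyA. DESeq2 called 2 members for M against G1 in total and 315 genes for the interaction in polyA (main 167). Without a count filter, 9 members were called between codes in M of total (main 4). Fitting both library types together gave, beside the total results, 11 members for M against G1, 20 between codes in G1 (main 12), 14 in M (main 4) and 5 for the interaction (main 2), and over all genes 462 (main 229) and 320 (main 135) between codes in G1 and M and 327 for the interaction (main 167 in polyA and 99 in total). That fit treats the polyA and total libraries of the same RNA as independent, which they are not, so its larger counts are not stronger evidence.

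Leaving out 1 library gave 10 to 12 members called for M against G1 in polyA and 2 to 5 in total, 13 to 19 and 10 to 14 between codes in G1, 9 to 14 and 3 to 7 in M, and 2 to 8 and 2 to 4 for the interaction. The total counts reached 2 without replicate 1 of code 18 in M for M against G1 and 7 without replicate 1 of code 14 in M for the codes in M. Over all genes the interaction ranged from 84 to 301 in polyA and from 44 to 138 in total. With culture as a replicate block, 10 members were called for M against G1 and 3 for the interaction in polyA, and 3 and 3 in total. Beside the losses given above, the interaction of MET14 in polyA (0.72) and of MET10 in total (1.00) was then called. The block changed no other call. With the number as a replicate block between codes, 17 members were called in G1 and 12 in M in polyA, and 12 and 5 in total. The cause of these changes was not tested.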
